A study of Mus musculus with 35 samples.

Results

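The proteasome genes described here are the 50 protein-coding mouse genes whose symbol is Psma, Psmb, Psmc, Psmd, Psme, Psmf or Psmg followed by a number, among 48709 genes in each table. They were grouped by the role of the protein: 7 subunits of the 20S alpha ring, 4 structural and 3 constitutive catalytic subunits of the 20S beta ring, 3 immunoproteasome catalytic subunits, 9 subunits of the 19S base, 8 of the 19S lid, 7 assembly chaperones, and 5 activators and regulators. Psma8, an alpha subunit of the testis, and Psmb11, a beta subunit of the thymic cortex, are tissue-restricted. The symbol also took in Psmc3ip, a factor of meiotic recombination that is no proteasome subunit, and Psme2b, a copy of the Psme2 gene. Both were kept apart from the 46 genes in the 8 classes. The filter on low counts kept 48 of the 50 genes. Psma8, with 12 counts over the 35 libraries, and Psmb11, with 0 counts, did not pass and were not tested.

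The RNA came from murine OT-I CTLs, cytotoxic CD8+ T cells with one transgenic receptor for an ovalbumin peptide. In all groups the cells had first been primed through CD3 and CD28 and then expanded with IL-2 at 200 IU/mL, so also the cells then kept without IL-2 had received it. One group was taken at 0 h, at the start of the test culture. The others were taken after 24 h in low-glucose medium at pH 7.4, pH 7 or pH 6.6, either without IL-2 or with IL-2 at 200 IU/mL, with 5 biological replicates in each of the 7 groups. Because dead cells were removed before RNA extraction, the libraries describe the surviving cells of each culture.

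The 26S proteasome degrades proteins that carry ubiquitin chains. Its 20S core is a barrel of stacked alpha and beta rings whose catalytic sites lie inside, and its 19S cap binds the ubiquitin chain (base and lid), unfolds the substrate with ATPases (base) and removes the ubiquitin (lid). In lymphocytes, the catalytic beta subunits can be exchanged for the immunoproteasome subunits Psmb8, Psmb9 and Psmb10, which change the peptides that are cut and offered on MHC class I molecules. The transcription factor Nfe2l1 is known to raise proteasome genes together when proteasome activity falls.

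Between 16721319 and 34033340 reads were counted on genes per library, with a median of 24730020. The markers of CD8+ T cells were high in sum in all groups, and 7 of 7 markers were detected. The summed level was 9390 to 12100 counts per 1000000 counted reads (CPM) at pH 7.4 with IL-2 and 2920 to 4300 CPM at pH 6.6 with IL-2. Single markers were not all high. Prf1 was at 376 to 686 CPM at 0 h and 164 to 562 CPM at pH 7.4 with IL-2. It was at 43.5 to 155 CPM at pH 6.6 with IL-2 and 16.5 to 41 CPM at pH 7.4 without IL-2. Without IL-2, Gzmb was at 36.7 to 99.1 CPM at pH 7. Markers of B cells were at most 0.381 CPM in sum in any library and those of red cells at most 0.235 CPM. The markers of myeloid and dendritic cells reached at most 29.6 CPM in sum, and those of NK cells ranged from 8.27 to 95 CPM, highest at 0 h. The NK cell sum was nearly all Klrb1c, at 8.27 to 94.9 CPM, while Ncr1 was at most 0.0694 CPM. Of the myeloid and dendritic markers, Lyz2 was at most 0.286 CPM and Csf1r at most 0.196 CPM. Itgax reached 24.9 CPM and H2-Aa 20.1 CPM. Cd4 was at most 2.48 CPM. At pH 7.4 without IL-2 the CD8+ T cell markers summed to 2810 to 3210 CPM. The sum was 2270 to 2660 CPM at pH 6.6 without IL-2 and 10100 to 13500 CPM at 0 h. Its difference between pH 7.4 with IL-2 and the groups at pH 6.6 with IL-2 or pH 7.4 without IL-2 came mostly from Gzmb, the cytotoxic protease granzyme B, at 6700 to 9010 CPM at pH 7.4 with IL-2, 482 to 1220 CPM at pH 6.6 with IL-2, 60.4 to 202 CPM at pH 7.4 without IL-2 and 6320 to 8920 CPM at 0 h. The receptor component Cd3e was at 374 to 435 CPM at pH 7.4 and 532 to 616 CPM at pH 6.6 with IL-2, and the ranges of Cd3d, Cd3g, Cd8a and Cd8b1 overlapped between these groups. Without IL-2 at pH 7.4, Cd3d (407 to 509 CPM), Cd3g (615 to 823 CPM) and Cd8b1 (358 to 414 CPM) lay above their ranges with IL-2 (282 to 402, 474 to 602 and 230 to 281 CPM). Between pH 7.4 and pH 6.6 without IL-2, Cd3e was higher at pH 6.6 (417 to 438 and 555 to 631 CPM) and the other 4 of these genes were lower, without overlap. The share of reads outside annotated genes also differed between groups. It was 3.91% to 5.18% at pH 7.4 with IL-2, 5.05% to 5.95% at pH 7 with IL-2 and, above both, 7.34% to 8.83% at pH 6.6 with IL-2, against 7.70% to 10.2% at pH 7.4, 8.36% to 11.1% at pH 7 and 6.47% to 9.19% at pH 6.6 without IL-2, and 2.58% to 5.68% at 0 h. The part of the markers and of this share in the results was not tested. One library stood apart: replicate 5 at 0 h had 48.3% of its reads aligned to several places, against 39.3% to 42.7% in the other 0 h libraries, and the highest mean level of its group in all 8 classes. The comparisons with 0 h are therefore given with and without replicate 5.

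Reads that align to several places were left out by the counting, which matters for genes with near-identical copies. Of the 50 genes, 32 had at least 95% of their 50-base windows in no other gene. Psme2b (30.7%), Psmb5 (45.9%), Psma5 (50.0%), Psme2 (71.7%) and Psmd9 (75.1%) had the fewest, and their levels are uncertain. Exons of some genes overlap those of a gene on the opposite strand, over 25.5% of the exon length for Psmd9, 21.2% for Psmc3ip (Mlx), 14.7% for Psmb8 (Gm20496), 11.8% for Psmb7, 10.1% for Psmd13 (Sirt3), 8.2% for Psmc3 (Slc39a13), 5.8% for Psmb9 (Tap1) and under 5% for the others that overlap. Reads of such partners can be told apart only if the counting used strand, which the sources used here do not state.

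Together the 46 classed genes made up 8266 to 9203 CPM of each library at pH 7.4 with IL-2, with a median of 8441. At pH 7 with IL-2 the sum was 6916 to 7546 CPM (median 7393), and at pH 6.6 with IL-2 it was 4422 to 4781 CPM (median 4477). These ranges did not overlap. Without IL-2 the order was different: the sum was 3517 to 4084 CPM at pH 7.4 (median 3752), 3405 to 3798 CPM at pH 7 (median 3747) and 4217 to 4685 CPM at pH 6.6 (median 4502). The ranges at pH 6.6 with and without IL-2 overlapped. At 0 h the sum was 5225 to 7440 CPM, with a median of 5483, and without replicate 5 it was 5225 to 5657 CPM. In bulk RNA, fewer cells that express a gene and less of its RNA per cell cannot be told apart, and a CPM value is a share of the counted reads, not an amount per cell.

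**Figure D1:**
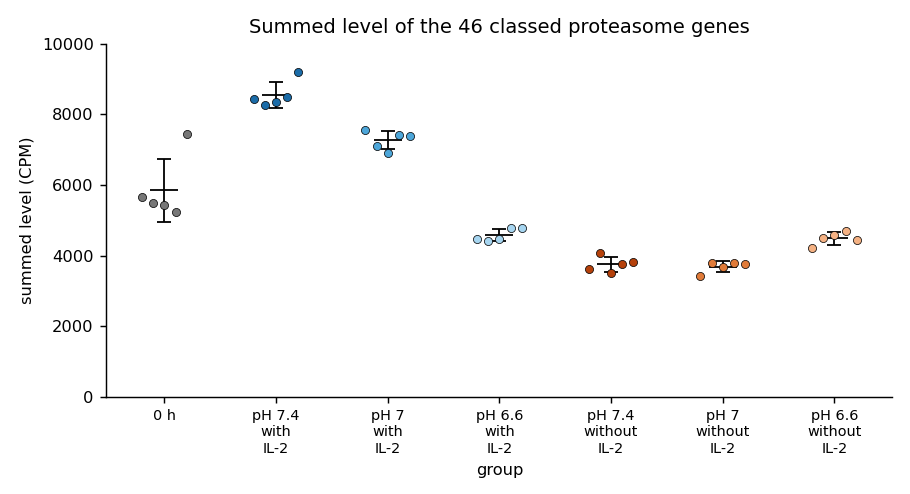
Summed level in CPM (y axis) of the 46 classed proteasome genes in each library (points) of the 7 groups (x axis), with the mean (horizontal line) and SD (bars) of 5 libraries. With IL-2 the sum falls from a median of 8441 CPM at pH 7.4 to 4477 CPM at pH 6.6, and without IL-2 it is 3752 CPM at pH 7.4 and 4502 CPM at pH 6.6.

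Levels of different genes were compared per kilobase of exon. The length was that of all annotated exons of a gene joined, not of the RNA made in these cells, so the values depend on the annotation. At pH 7.4 with IL-2, the median of a class was 96.2 CPM per kb for the alpha ring, 83.3 for the structural beta subunits, 48.3 for the constitutive catalytic subunits and 97.6 for the immunoproteasome subunits. It was 76.7 CPM per kb for the 19S base, 55.3 for the lid, 21.9 for the assembly chaperones and 133.9 for the activators. Thus the chaperones, which act during assembly and are not part of the finished particle, had the lowest class median. Within the alpha ring, whose subunits occur in equal number, the levels still ran from 9.93 CPM per kb for Psma3 to 177 for Psma6. The exon lengths used for these were 3894 and 1234 bases. Psmb8 at 202 CPM per kb was far above its constitutive counterpart Psmb5 at 46.6, for which under 50% of the windows are unique. Psmb9 at 60.6 and Psmb6 at 68.6 CPM per kb were close to each other, with exon lengths of 3660 and 1872 bases. In CPM, Psmb9 was above Psmb6 in every library of this group, with log2 ratios of 0.70 to 0.89.

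The response to IL-2 at pH 7.4 was a rise of nearly every proteasome gene. With IL-2, 46 of the 48 tested genes were higher than without it (edgeR's quasi-likelihood test, Benjamini-Hochberg adjusted p under 0.05) and 2 were lower, Psme4 and Psme2b. Of all 13819 genes tested, 39.3% rose and 41.1% fell. For the proteasome genes the median log2 change was 1.37, against -0.04 over all genes. At pH 7, 43 genes were higher and 2 lower (background 37.6% and 39.5%) and a median of 1.08. At pH 6.6 the median was 0.04, and 8 genes were higher and 2 lower, against 13.2% and 10.6% of all genes. The last counts depend on the fit: with only the pH 6.6 libraries in the model, 20 genes were higher and 4 lower. The background also rose in that fit, to 2807 higher and 2562 lower of all 12514 genes tested, from 1819 and 1459 of 13819.

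At pH 7, Psmc3ip, Psmd1 and Psmb2 had the largest rises with IL-2, by 3.19, 2.01 and 1.79, as at pH 7.4. Psme2b and Psme4, which were lower with IL-2, differed by -1.60 and -0.27 at pH 7.4 and by -1.38 and -0.30 at pH 7. At pH 6.6 the largest rises were those of Psmc3ip (1.13 ± 0.17), Psmg1 and Psmg2, and the 2 lower genes were Psmd4 (-0.22 ± 0.08) and Psmf1 (-0.18 ± 0.06). Psmd4 was at 133, 131, 136, 153 and 135 CPM without IL-2 and 117, 123, 115, 117 and 119 CPM with it, and its call was lost in 6 settings. The call of Psmf1 was lost when any one of the 5 replicates was left out and under the looser filter.

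Acidity was then compared within each IL-2 condition. With IL-2, 42 of 48 genes were lower at pH 6.6 relative to pH 7.4, and 2 were higher, against 40.9% and 35.4% of all genes, with a median log2 fold change of -1.09 (-0.07 over all genes). At pH 7 with IL-2, 32 genes were lower and 0 higher, against 9.83% and 9.15% of all genes. By an unadjusted p under 0.05, and by DESeq2, the number of higher genes was also 0. The falls at pH 7 were small, with a median of -0.28 and none beyond -0.45, and their number dropped to 21 without replicate 2 and 18 without replicate 3. The background dropped as well, from 1359 lower of 13819 genes to 756 of 13795 and 637 of 13887. Without IL-2, acidity had the opposite direction for many genes: 24 were higher at pH 6.6 and 6 lower, against 31.6% and 35.4% of all genes, with a median of 0.20 (-0.03 over all genes). The share of higher calls among the proteasome genes was thus above the background and that of lower calls below it. At pH 7 without IL-2, edgeR called 0 genes in either direction, with 0 at an unadjusted p under 0.05 and 0 by DESeq2, against 1.36% higher and 0.318% lower of all genes. As the acid and IL-2 comparisons share the libraries at pH 7.4 with IL-2, they are not independent of each other.

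**Figure D2:**
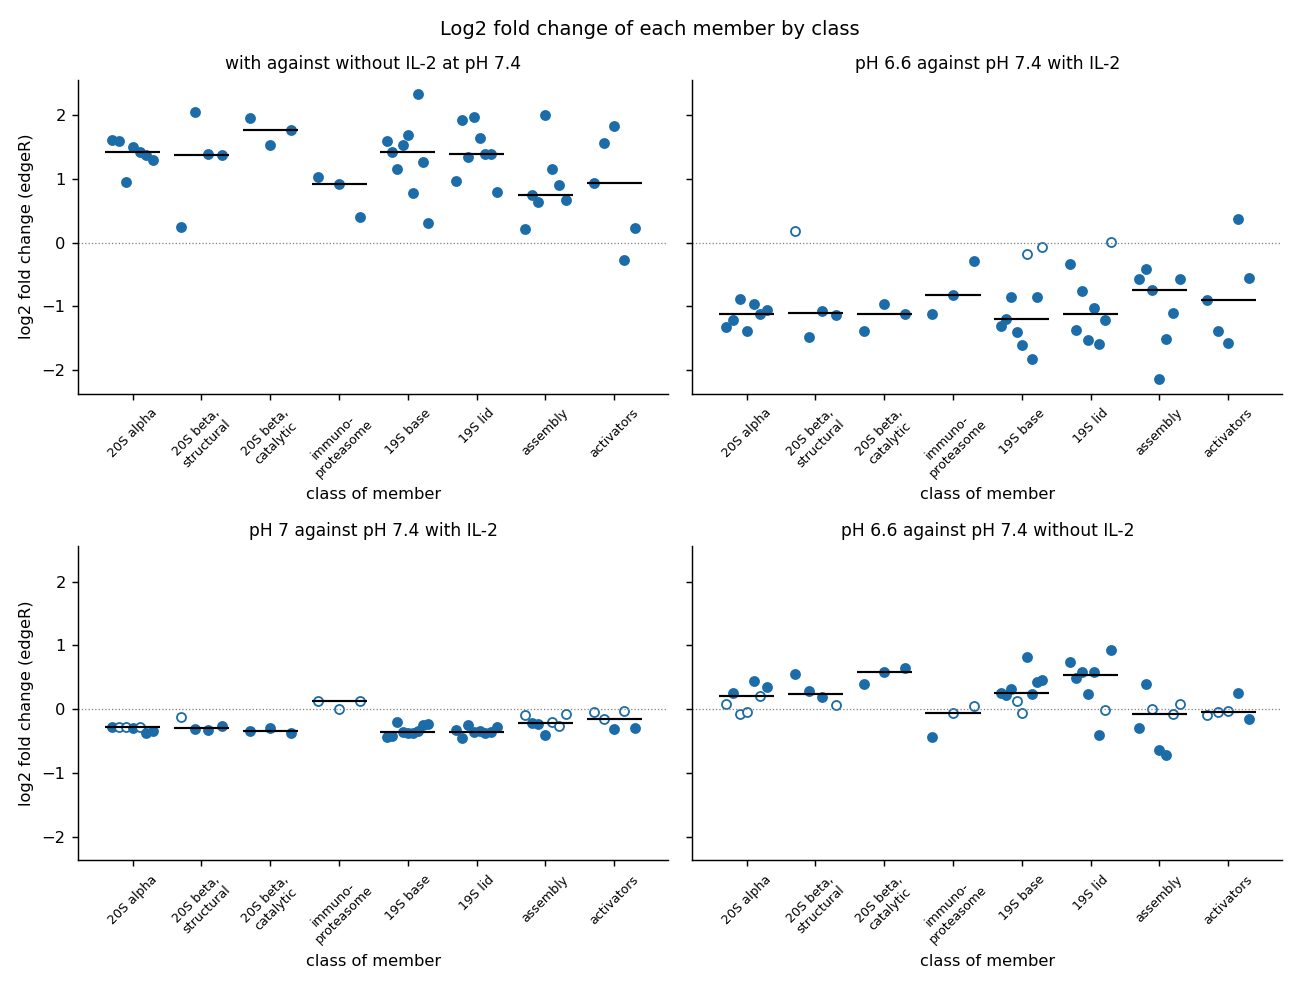
Log2 fold change from edgeR (y axis) of each of the 46 classed genes (points) by class (x axis) in 4 comparisons. Filled points passed an adjusted p of 0.05, open points did not, and horizontal lines are class medians. The immunoproteasome subunits are the one class with no filled point at pH 7 with IL-2, where the median of the class is 0.13.

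Psma1 to Psma7 form the alpha ring, which gates the entry to the core. All 7 were higher with IL-2 at pH 7.4, with log2 fold changes between 0.95 for Psma3 and 1.60 for Psma1, and all 7 were lower at pH 6.6 with IL-2, between -1.38 for Psma4 and -0.88 for Psma3. Psma4 was at 231, 207, 232, 224 and 266 CPM in replicates 1 to 5 at pH 7.4 with IL-2 and at 95.6, 77.1, 91.2, 87.1 and 93.2 CPM at pH 6.6 with IL-2, so that the groups lay well apart. At pH 7 with IL-2, Psma1, Psma4, Psma6 and Psma7 passed the test, and all 7 values lay between -0.37 and -0.27. The calls of Psma1, Psma4 and Psma6 were lost without replicate 2 or replicate 3. Those of Psma1 and Psma4 were also lost without the replicate block. That of Psma4 was lost under the looser filter and without replicate 1 or replicate 4 as well. Without IL-2, Psma2, Psma5 and Psma7 were higher at pH 6.6 by 0.26, 0.44 and 0.35, and the other 4 did not pass.

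Of the structural beta subunits, Psmb2, Psmb3 and Psmb4 followed the alpha ring and Psmb1 did not. Psmb2 rose from 48.2, 57.7, 48.5, 50.2 and 49 CPM at pH 7.4 without IL-2 to 210.4, 199.5, 202, 209 and 231 CPM with IL-2, a log2 fold change of 2.05 ± 0.08 (SE), a rise exceeded among the proteasome genes by those of Psmc3ip and Psmd1. It fell by 1.47 at pH 6.6 with IL-2, to 82.1, 63.5, 69.2, 81.7 and 82.8 CPM. Psmb3 and Psmb4 fell there by 1.07 and 1.14, and without IL-2 Psmb3 rose by 0.20 and Psmb4 was not called (0.07). Psmb1 was at 283, 251, 261, 275 and 315 CPM at pH 7.4 with IL-2 and 291, 307, 328, 310.0 and 328 CPM at pH 6.6 with IL-2. These groups overlapped, with a log2 difference of 0.18 ± 0.09 and an edgeR adjusted p of 0.0663 in the fit of all groups, while DESeq2 and 6 other settings called it higher. Without IL-2, Psmb1 was at 223, 253, 209.5, 244 and 230.1 CPM at pH 7.4 and 315, 342, 351, 349 and 348 CPM at pH 6.6, a rise of 0.56 ± 0.09 with no overlap. Its response to IL-2 at pH 7.4 was the smallest among the 31 subunits of the core, base and lid other than the immunoproteasome subunits, at 0.25.

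Psmb6, Psmb7 and Psmb5 carry the caspase-like, trypsin-like and chymotrypsin-like sites of the constitutive core. Psmb5 (chr14:54614119-54618022, minus strand, GRCm38) and Psmb6 (chr11:70525367-70527858, plus strand) each have a match to TGACNNNGC, the core of the antioxidant response element bound by factors such as Nfe2l1, in the 250 bases before their RefSeq start. Psmd9, a chaperone of the 19S base, also has such a match in the 250 bases before its RefSeq start. Psmb5, Psmb6 and Psmd9 were chosen from the genes with a match. The stretches are shown because they hold the letters by which Nfe2l1 targets are usually sought. They are RefSeq sequence of build GRCm38.p6, given 5′ to 3′ on the strand of the gene, with the match in capitals.
Psmb5, chr14:54618023-54618142, minus strand: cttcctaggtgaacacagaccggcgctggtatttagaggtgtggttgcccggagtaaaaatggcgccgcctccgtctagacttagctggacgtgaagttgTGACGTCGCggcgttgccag
Psmb6, chr11:70525237-70525356, plus strand: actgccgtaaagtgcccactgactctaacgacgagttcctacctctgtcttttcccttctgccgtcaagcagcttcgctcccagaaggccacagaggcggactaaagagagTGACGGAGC
Psmd9, chr5:123228070-123228189, plus strand: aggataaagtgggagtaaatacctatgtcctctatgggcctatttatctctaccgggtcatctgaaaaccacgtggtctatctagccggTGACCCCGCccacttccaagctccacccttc
A match is a description of letters. It occurred in 5 of 45 windows of 42 proteasome genes (11.1%), the others being Psmc6 and Psmd12, and in 10.2% of all 32851 windows, searched on both strands.

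The constitutive catalytic subunits showed the full pattern of the group. Psmb5 was at 11.6, 9.78, 9.7, 10.9 and 11.9 CPM at pH 7.4 without IL-2 and at 39.3, 37, 39.2, 47.8 and 46.1 CPM with IL-2. In acid with IL-2 it was at 31.1, 36, 33.2, 33.3 and 31.4 CPM at pH 7 and 15.3, 16.2, 13.3, 18.4 and 17 CPM at pH 6.6, so every library at pH 6.6 lay below every library at pH 7.4. The log2 fold change was 1.96 ± 0.11 for IL-2 at pH 7.4 and -1.38 ± 0.11 for pH 6.6 with IL-2. At pH 7 the fall of 0.34 lost its call in 3 of the 5 fits that leave out a replicate. Psmb6 fell by 0.96 and Psmb7 by 1.12 at pH 6.6 with IL-2, in 5 of 5 same-numbered pairs each. Without IL-2 all 3 rose at pH 6.6. Psmb7 went from 47.9, 54.3, 43.7, 50.9 and 45 CPM at pH 7.4 to 76.3, 72.3, 77.3, 74.8 and 77.1 CPM, a rise of 0.64 ± 0.09 with no overlap. The rises of Psmb6 and Psmb5 were 0.58 and 0.40. At pH 6.6 with IL-2, Psmb7 was at 79, 69, 73.2, 79.6 and 77.9 CPM, close to its levels at pH 6.6 without IL-2.

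Psmb8 and Psmb9 are neighbours in the MHC region (chr17:34197721-34201454 and chr17:34181987-34187764, GRCm38), and Psmb10 lies at chr8:105935735-105938444. All 3 rose with IL-2 at pH 7.4, by 0.92, 0.40 and 1.02, and fell at pH 6.6 with IL-2, by 0.82, 0.28 and 1.12 on the log2 scale. Psmb8 was at 655, 629, 623, 747 and 763 CPM at pH 7.4 with IL-2 and 370.4, 363, 321, 462 and 415 CPM at pH 6.6 with IL-2, without overlap. Psmb9 was at 218, 203, 211, 229 and 247 CPM at pH 7.4 and 181, 175, 167, 207 and 180.2 CPM at pH 6.6 with IL-2, where the groups overlapped. The fall of Psmb9 was the smallest called fall of the proteasome genes and lost its call without replicate 1 or replicate 2. At pH 7 with IL-2, none of the 3 passed the test, with log2 differences of 0.01 ± 0.10, 0.13 ± 0.10 and 0.13 ± 0.12 in the order above and 0 at an unadjusted p under 0.05 or by DESeq2. Psmb9 was at 230.4, 258, 262, 234 and 228 CPM there. Without IL-2, Psmb10 fell at pH 6.6 from 73.9, 88.1, 79.8, 72.5 and 95.2 CPM to 57.1, 54.8, 58.8, 72.8 and 60.2 CPM, with overlapping ranges and a log2 fold change of -0.43 ± 0.13. Psmb8 and Psmb9 were not called there.

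The balance between immunoproteasome and constitutive subunits was tested as the log2 ratio of their CPM within each library, which does not depend on the library's scaling. Psmb8 was set against Psmb5, Psmb9 against Psmb6 and Psmb10 against Psmb7, which occupy the same places in the ring. At pH 7.4 with IL-2 the log2 ratio of Psmb9 to Psmb6 was 0.87, 0.76, 0.89, 0.73 and 0.70 in replicates 1 to 5, and without IL-2 it was 1.66, 2.10, 1.99, 1.96 and 1.84. The difference of -1.12 was accompanied by one of -1.02 for Psmb8 to Psmb5 and -0.75 for Psmb10 to Psmb7, each lower with IL-2 in 5 of 5 pairs and with no overlap (exact two-sided unpaired permutation test, n = 5 per group, p = 0.00794, the smallest this unpaired test can give, adjusted p = 0.00893 over 9 tests). IL-2 at pH 7.4 was thus accompanied by a larger rise of the constitutive than of the immunoproteasome subunit in all 3 pairs.

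In acid the 3 pairs parted. At pH 6.6 with IL-2 the ratio was higher than at pH 7.4 for Psmb8 to Psmb5, with means of 4.58 ± 0.06 and 4.03 ± 0.05 (SD, n = 5), and for Psmb9 to Psmb6, with means of 1.46 ± 0.09 and 0.79 ± 0.08. Both differences, 0.55 and 0.67, had an exact permutation p of 0.00794 (adjusted p = 0.00893), higher in 5 of 5 pairs. The ratio of Psmb10 to Psmb7 had means of 0.01 ± 0.21 and 0.01 ± 0.14, a difference of 0.00080 that was not detectable (exact permutation p = 0.992, higher in 3 of 5 pairs). Without IL-2 all 3 ratios were lower at pH 6.6, by 0.45 for Psmb8 to Psmb5, 0.52 for Psmb9 to Psmb6 and 1.08 for Psmb10 to Psmb7, with no overlap and the same smallest p. At pH 7 with IL-2, a comparison added after the values had been seen, the ratios were higher than at pH 7.4 by 0.34, 0.43 and 0.49 in the same order, in 5 of 5 pairs each (exact permutation p = 0.00794, 0.00794 and 0.0159, adjusted together with the 9 tests 0.00952, 0.00952 and 0.0173). Psmb5 is the subunit with the fewest unique windows among these 6 genes, so the pairs with Psmb6 and Psmb7 are the firmer ones.

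**Figure D3:**
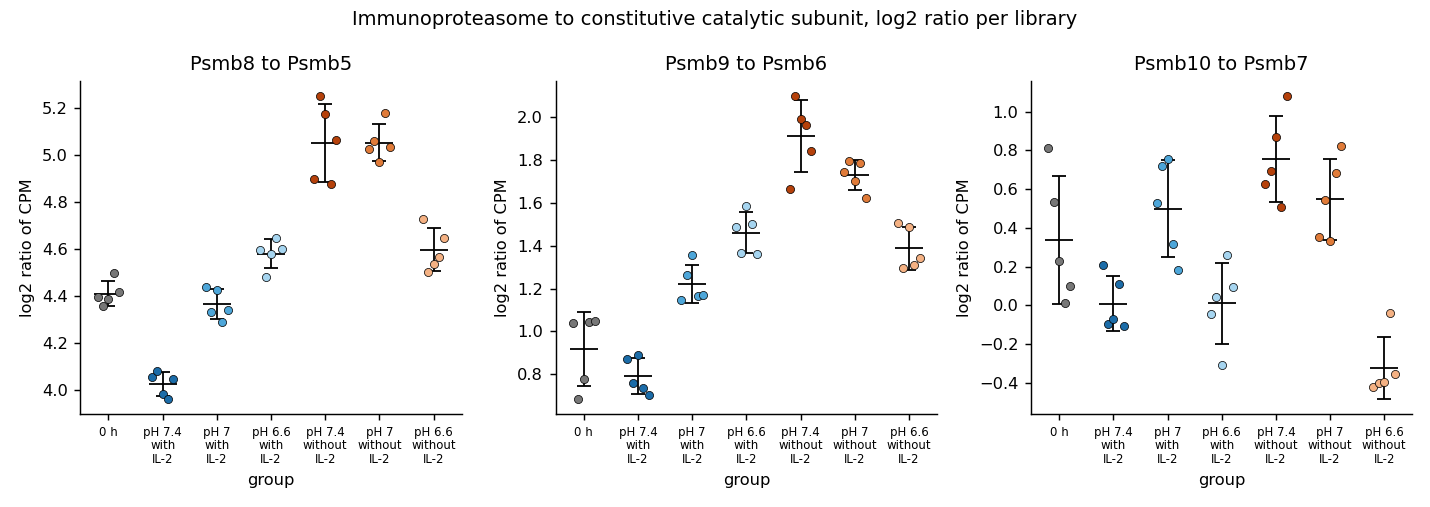
Log2 ratio of CPM (y axis) of each immunoproteasome subunit to the constitutive subunit it replaces, in each library (points) of the 7 groups (x axis), with the mean and SD of 5 libraries. The ratios of Psmb8 to Psmb5 and Psmb9 to Psmb6 are lowest at pH 7.4 with IL-2 and highest in the IL-2-free groups at pH 7.4 and pH 7, and Psmb10 to Psmb7 is lowest at pH 6.6 without IL-2.

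The 19S base consists of the ATPases Psmc1 to Psmc6, the scaffold subunits Psmd1 and Psmd2, and the ubiquitin receptor Psmd4. All 9 rose with IL-2 at pH 7.4 and all 9 fell at pH 7 with IL-2, between -0.43 for Psmc1 and -0.20 for Psmc3. For Psmc1 this was from 195, 199.9, 208, 192 and 219 CPM to 146, 145, 140.2, 155 and 165 CPM, and Psmc2, with 161, 168, 175, 169 and 194 CPM at pH 7.4 and 129.7, 126, 119.8, 138 and 136 CPM at pH 7, fell by 0.41 ± 0.07. Of the base subunits, Psmd1 changed most with IL-2 at pH 7.4 and at pH 6.6 with IL-2. It was at 56.7, 55.1, 53.6, 51.9 and 50.2 CPM at pH 7.4 without IL-2 and 276, 306, 279, 252 and 234 CPM with IL-2, which is 5.02-fold higher (log2 2.33 ± 0.09), and at 79.7, 74.1, 73.8, 74.8 and 77.9 CPM at pH 6.6 with IL-2, 3.52-fold lower than at pH 7.4 (log2 -1.82 ± 0.09, adjusted p = 5.08e-18 by edgeR). No library at pH 6.6 reached the level of any at pH 7.4. Psmc6 and Psmd4 behaved differently. Psmc6 was at 186, 194, 205, 193 and 225 CPM at pH 7.4, 154, 138, 128, 173 and 182 CPM at pH 7 and 159, 174, 211, 164 and 179 CPM at pH 6.6 with IL-2, so it was called lower at pH 7 (-0.37) and not at pH 6.6 (-0.17 ± 0.12). Its call at pH 7 was lost under the looser filter and without replicate 1, 2, 3 or 4. Those of Psmc3 and Psmd4 were lost under the looser filter and without replicate 2, 3, 4 or 5. The call of Psmc3 was also lost without the replicate block, and that of Psmd1 without replicate 2 or 3. Without IL-2 Psmc6 rose at pH 6.6 to 189.9, 221, 224, 198 and 198 CPM, by 0.82 ± 0.12, the second largest rise in that comparison. Psmd4 likewise differed by -0.08 ± 0.08 at pH 6.6 with IL-2, not called, and rose by 0.46 without IL-2. Of the other base subunits without IL-2, Psmc1, Psmc2, Psmc3, Psmd1 and Psmd2 rose, by 0.22 to 0.43, and Psmc4 and Psmc5 were not called.

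The lid holds the deubiquitinating enzyme Psmd14 and 7 other subunits of this list. All 8 rose with IL-2 at pH 7.4, from 0.80 for Psmd8 to 1.97 for Psmd14, and all 8 fell at pH 7 with IL-2, where the call of Psmd14 was lost without replicate 3. The largest fall of any proteasome gene at pH 7 was that of Psmd12, at -0.45 ± 0.09, from 199, 201, 211, 197 and 222 CPM to 147, 139.9, 132, 164 and 171 CPM. At pH 6.6 with IL-2, 7 of 8 fell, Psmd6 by 1.59 and Psmd11 by 0.33 at the extremes. Psmd8 was the exception, at 218, 204, 207, 211 and 241 CPM at pH 7.4 and 202, 229, 217, 212 and 221 CPM at pH 6.6, with a log2 difference of 0.0021 ± 0.07 (SE). Between these, at pH 7 with IL-2, it was lower than in either, at 185, 171, 174, 181 and 178 CPM, against pH 7.4 a fall of 0.28. Without IL-2, Psmd8 had the largest rise of all proteasome genes at pH 6.6, from 115, 138, 116, 121 and 132 CPM to 211, 248, 252, 251 and 225 CPM, which is 1.91-fold (log2 0.94 ± 0.07, adjusted p = 8.48e-13 by edgeR). Psmd11 rose from 77.9, 79.4, 74.4, 78.3 and 73.6 CPM to 119, 139, 132, 122 and 130.3 CPM, by 0.74. Psmd3 rose by 0.59, Psmd13 by 0.58, Psmd12 by 0.49 and Psmd14 by 0.23, and Psmd7 was not called (-0.02). Psmd6 went the other way and fell by 0.41, from 55.5, 56, 46.9, 54.1 and 52.8 CPM to 38.5, 38.9, 41.8, 38.5 and 42.6 CPM, with no overlap.

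**Figure D4:**
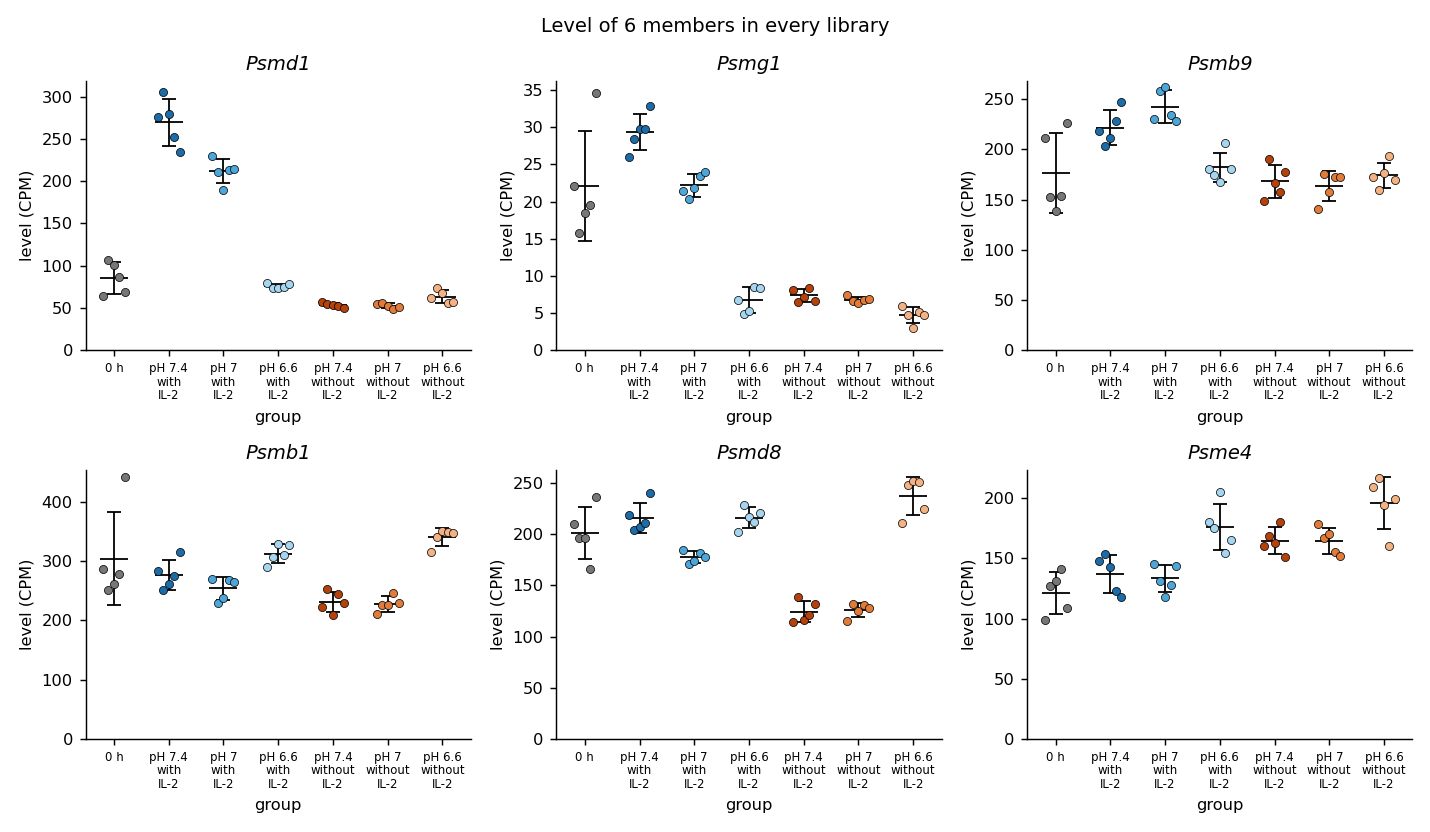
Level in CPM (y axis) of 6 proteasome genes in each library (points) of the 7 groups (x axis), with the mean and SD of 5 libraries. Psmd1 and Psmg1 are high at pH 7.4 and pH 7 with IL-2 and low in the other 24 h groups, Psmb9 is highest at pH 7.4 and pH 7 with IL-2, Psmb1 and Psmd8 have means at pH 6.6 at or above those at pH 7.4, and Psme4 has its highest means at pH 6.6.

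The assembly chaperones build the alpha ring (Psmg1 with Psmg2, Psmg3 with Psmg4) and the 19S base (Psmd5, Psmd9 and Psmd10). All 7 rose with IL-2 at pH 7.4, from 0.21 for Psmd10, which lost its call in 6 settings, among them the fit without the replicate block, to 2.0 for Psmg1. All 7 fell at pH 6.6 with IL-2. Psmg1 had the largest fall of any classed gene, 4.42-fold (log2 -2.14 ± 0.14), from 26, 28.5, 29.8, 29.8 and 32.8 CPM at pH 7.4 to 6.76, 4.84, 5.24, 8.51 and 8.37 CPM at pH 6.6. Psmg2 fell by 1.51, from 48.6, 53.4, 54.3, 52.7 and 59.9 CPM to 20.9, 16.1, 17.1, 21.6 and 19 CPM. The 2 partners of this chaperone pair were also the largest falls at pH 6.6 without IL-2, where most subunits of the particle rose or were not called. There Psmg2 fell by 0.72 ± 0.10, from 24.7, 25.6, 21.6, 25.7 and 23.5 CPM to 16.2, 13.6, 13.3, 16.8 and 13.8 CPM, and Psmg1 by 0.64 ± 0.15, from 8.14, 6.44, 7.16, 8.43 and 6.68 CPM to 6.02, 4.7, 3.0, 5.2 and 4.74 CPM. In both cases all libraries at pH 6.6 lay below all at pH 7.4. Psmd10 fell by 0.29 and Psmd5 rose by 0.40, and Psmg3, Psmg4 and Psmd9 were not called. At pH 6.6, IL-2 still made a difference for Psmg1 (0.49) and Psmg2 (0.36), of which the call of Psmg1 was lost without replicate 3 or replicate 4.

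Among the activators, Psme1 and Psme2 form the PA28 ring that interferon induces, Psme3 forms the nuclear PA28 ring and Psme4 is the PA200 activator. Psmf1 is the inhibitor PI31. Psme3 was at 415, 416, 409, 372 and 362 CPM at pH 7.4 with IL-2, 134, 125, 124, 137 and 141 CPM at pH 6.6 with IL-2 and 111, 112, 109, 115 and 109.8 CPM at pH 7.4 without IL-2, so that the libraries of the last 2 groups all lay below those of the first. Its log2 fold changes were -1.58 ± 0.08 for pH 6.6 with IL-2 and 1.82 ± 0.08 for IL-2 at pH 7.4. Psme1 and Psme2 fell at pH 6.6 with IL-2 by 0.91 and 1.38. At pH 7 they were not called (-0.04 ± 0.10 and -0.15 ± 0.11), as the immunoproteasome subunits, whereas Psme3 (-0.30) and Psmf1 (-0.29) were called lower. Without IL-2 none of Psme1, Psme2 and Psme3 passed the test at pH 6.6.

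Psme4 ran against the group. It was at 148, 154, 143, 123 and 118 CPM at pH 7.4 and 180.2, 175, 205, 155 and 165 CPM at pH 6.6 with IL-2, and at 161, 169, 163, 181 and 151 CPM and 209, 217, 194, 161 and 199.6 CPM without IL-2. It was thus the one classed gene higher at pH 6.6 with IL-2, by 0.36 ± 0.09, and the one classed gene lower with IL-2 at pH 7.4, by 0.27, a call that was lost without replicate 4. Its rise at pH 6.6 without IL-2, 0.25 ± 0.09, was lost without replicate 1, 2 or 5. Psmf1 fell from 58.3, 53.4, 54.1, 57.8 and 58.1 CPM at pH 7.4 to 39.5, 38.5, 38.3, 38.6 and 36.9 CPM at pH 6.6 with IL-2, by 0.55 ± 0.06, and its fall without IL-2, -0.15, was lost in 7 settings.

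The genes outside the classes were Psmc3ip and Psme2b. Psmc3ip was at 17.8, 19.2, 20.1, 17 and 20.5 CPM at pH 7.4 with IL-2, 3.41, 3.36, 2.77, 5.59 and 3.96 CPM at pH 6.6 with IL-2 and 1.62, 2.0, 1.69, 1.5 and 1.75 CPM at pH 7.4 without IL-2, and had the largest changes of all, 3.46 for IL-2 at pH 7.4 and -2.30 for pH 6.6 with IL-2. The copy Psme2b rose by 0.92 ± 0.18 at pH 6.6 with IL-2, to 9.01, 8.56, 9.27, 8.72 and 10.1 CPM from 5.07, 6.25, 4.64, 4.14 and 4.02 CPM, while Psme2 fell. At pH 7.4 without IL-2 it was at 14.6, 13.2, 16.5, 14.6 and 14.5 CPM. With 30.7% of its windows unique, its reads rest on a small part of its sequence.

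Whether acid at pH 6.6 acted differently in the presence of IL-2 was tested as an interaction. It was negative for 45 of 48 genes and positive for 1, Psme2b (1.18), against 32.8% and 34.3% of all genes, with a median of -1.28 (0.04 over all genes). The largest were -2.33 ± 0.23 for Psmc3ip, -2.06 ± 0.13 for Psmd1 and -1.86 ± 0.13 for Psmd12. For Psmb8, Psmb9 and Psmb10 it was -0.76, -0.34 and -0.68, of which that of Psmb9 lost its call in 6 settings. Psme4 (0.11 ± 0.13) and Psmd10 (-0.28 ± 0.13) were not called. The genes not called at pH 6.6 with IL-2 (Psmb1, Psmc6, Psmd4 and Psmd8) had called negative interactions of -0.38, -0.99, -0.54 and -0.93, and all 4 rose at pH 6.6 without IL-2.

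**Figure D5:**
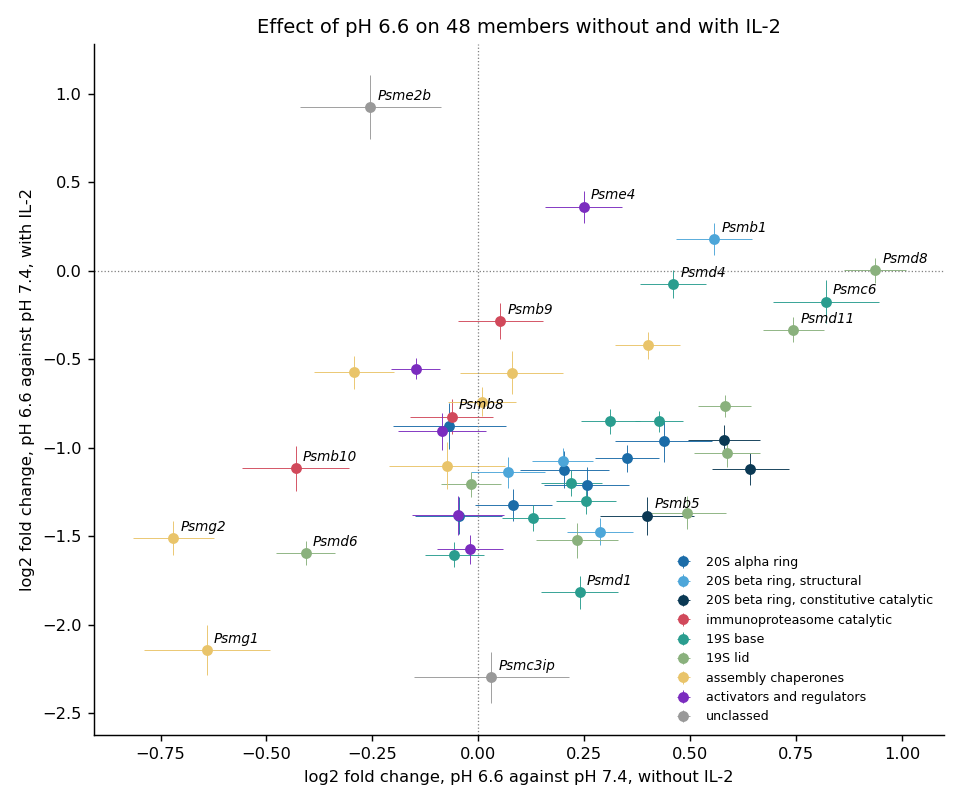
Log2 fold change of pH 6.6 against pH 7.4 without IL-2 (x axis) and with IL-2 (y axis) for the 48 tested genes (points, coloured by class, bars are SE). Most points lie in the lower right, lower with IL-2 and higher without, with Psmg1, Psmg2, Psmd6, Psmd10, Psmb10 and Psmf1 called lower in both and Psme4 called higher in both.

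Cells in acid with IL-2 were also set against cells without IL-2 at pH 7.4. Of the 48 genes, 29 were higher at pH 6.6 with IL-2 and 5 lower (background 30.4% and 34.1%), with a median log2 difference of 0.24. All 3 constitutive catalytic subunits were higher, by 0.57 to 0.64, and Psmd8 by 0.80. The largest difference was that of Psmc3ip, at 1.16. The 3 immunoproteasome subunits did not pass the test, with values of -0.09 to 0.11 and 0 at an unadjusted p under 0.05 or by DESeq2. Psmg2 (-0.36), Psmd10 (-0.37), Psmd6 (-0.21), Psmf1 (-0.33) and Psme2b (-0.68) were lower.

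Against the start of the culture, 39 of 48 genes were higher after 24 h at pH 7.4 with IL-2 and 1 was lower, Psmg4 (background 29% and 30.9%), with a median of 0.61. At pH 7.4 without IL-2, 3 were higher and 40 lower (background 36.9% and 38.3%), with a median of -0.71. At pH 6.6 with IL-2, 6 were higher and 33 lower (background 30.5% and 38.0%), with a median of -0.46. The 3 comparisons share the 0 h libraries. Psmd1 rose by 1.66 over 24 h with IL-2 at pH 7.4, from 64.7, 107, 101, 86.9 and 68.9 CPM, and differed by -0.16 at pH 6.6 with IL-2, which was not called, but was called without replicate 5 (-0.23). Psmc3ip and Psmc2 were the other large rises with IL-2 at pH 7.4, of 1.91 and 0.95 (1.92 and 1.03 without replicate 5). Psmc2 was at 81.8, 83, 86.6, 81.1 and 119 CPM at 0 h. Psmg4 was at 23.6, 17.2, 17.6, 16.7 and 32 CPM at 0 h and 16.3, 14.6, 16.2, 18.1 and 18.6 CPM at pH 7.4 with IL-2, a fall of 0.35 ± 0.12 with overlapping ranges. Psmg1 fell by 1.56 without IL-2 at pH 7.4 and by 1.70 at pH 6.6 with IL-2, the largest fall of a classed gene in both. Without replicate 5 these were -1.33 and -1.58. Without IL-2, Psmc3ip and Psmb5 fell by 1.55 and 1.39 (-1.53 and -1.35 without replicate 5, so that Psmb5 then exceeded Psmg1). At pH 6.6 with IL-2, Psmg4 and Psmg3, the other chaperone pair, fell by 0.92 and 0.86 (-0.75 and -0.74 without replicate 5). Psmg3 was at 9.47, 7.14, 7.09, 7.08 and 10.9 CPM at 0 h and 4.74, 4.08, 3.52, 5.96 and 4.62 CPM at pH 6.6 with IL-2, and Psmg4 was there at 10.6, 10.7, 11.3, 11.6 and 11.8 CPM. Psme4 rose in both, by 0.44 and 0.53 (0.43 and 0.53 without replicate 5). Psme2b rose by 1.82 and 1.14 (1.59 and 0.88), Psmf1 by 0.21 without IL-2 (0.17) and Psmd11 by 0.36 at pH 6.6 with IL-2 (0.44). Without replicate 5, whose 0 h library stood apart, 41 genes were higher at pH 7.4 with IL-2 and Psmg4 was no longer called, 3 were higher and 38 lower without IL-2, and 9 were higher and 32 lower at pH 6.6 with IL-2. The medians were then 0.69, -0.64 and -0.37 in this order. Of all 13850 genes tested without replicate 5, 4015 were higher and 3972 lower at pH 7.4 with IL-2. At pH 7.4 without IL-2, 4952 were higher and 5066 lower, and at pH 6.6 with IL-2 4137 and 4993.

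Other genes of the pathway were counted from a list of 41 genes, all of them tested. Of all genes tested, 40.9% fell and 35.4% rose at pH 6.6 with IL-2, 39.3% rose with IL-2 at pH 7.4 and 31.6% rose at pH 6.6 without IL-2, and the small groups below are read against these shares. Of 10 subunits, assembly factors and partners under other symbols, 9 rose with IL-2 at pH 7.4, above the background, and 5 fell and 1 rose at pH 6.6 with IL-2, where the number of falls is near it. Those beyond a log2 fold change of 1 at pH 6.6 were the core maturation factor Pomp (-1.09) and the proteasome-bound deubiquitinases Uchl5 (-1.27) and Usp14 (-1.37), and these rose with IL-2 at pH 7.4 by 1.58, 1.85 and 1.79. Without IL-2, 9 of the 10 rose at pH 6.6. Of 8 shuttling and unfolding factors, 6 fell and 1 rose at pH 6.6 with IL-2. Of 8 genes for the transcription of proteasome genes, 2 fell and 3 rose there, which is near the background. Nfe2l1 itself differed by -0.40, Nfe2l2 by 0.55, the protease Ddi2, which processes Nfe2l1, by 0.74, and Bach1, a repressor at antioxidant response elements, by 1.03, all called. Without IL-2, Nfe2l1 rose by 0.16 and Maff by 1.10 at pH 6.6. Of the 6 ubiquitin genes and activating enzymes, Uba1 fell by 0.66 and Uba6 by 0.38 at pH 6.6 with IL-2, and 5 rose without IL-2.

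Of 9 genes for antigen processing and its regulators, 6 fell and 1 rose at pH 6.6 with IL-2 (background 40.9% and 35.4%). With IL-2 at pH 7, 3 rose and the other 6 were not called (background 9.15% higher and 9.83% lower). Tap1, which shares its promoter region with Psmb9, rose by 0.22 at pH 6.6, and the peptide trimming enzyme Erap1 and the transcription factor Irf8 fell by 1.09 and 2.17. At pH 7 with IL-2 the interferon-related factor Irf1 rose by 0.63 and Tapbp, a chaperone of peptide loading, by 0.28. These values stand beside those of the immunoproteasome subunits, which were not called at pH 7 with IL-2, and were not tested against them.

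Other motifs were searched in the same windows, on both strands. CCAAT, bound by NF-Y, was in 15 of the 45 proteasome gene windows (33.3%) and in 33.9% of all windows. TTCNNNGAA, a STAT motif, was in 2 (4.44%), those of Psmb8 and Psmg1, against 7.02% of all. The interferon-stimulated response element, searched as a pair of GAAA blocks 2 bases apart, was in 3 (6.67%), those of Psmb3, Psmd4 and Psmd9, against 2.98%, and CACGTG, the E-box, in 4 (8.89%), those of Psma4, Psmb10, Psmd9 and Psme3, against 6.02%. A missing match says only that these letters are not in this window.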

How the data were processed

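RNA of 35 libraries, 5 biological replicates in each of 7 groups, was sequenced as single reads from stranded, poly(A)-selected libraries. The deposited values are raw read counts per gene for 48709 genes. Per the labels, the submitters' processing notes name cutadapt 1.8, STAR 2.5.2b, HTSeq 0.6.1 and build GRCm38. The strand setting and annotation release of the counting are not given in the sources used here. Identifiers were matched to GENCODE M21 symbols for 48349 genes. The 5 closing rows that name no gene were left out. They held a median of 37.1% of reads aligned to several places, 7.42% outside annotated genes and 0.922% on several genes.

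Counts were tested with edgeR 4.0.16 in R 4.3.3 (quasi-likelihood F-test, robust, TMM normalization, replicate number as a block, all 35 libraries) after a filter with a minimum count of 10, which kept 13819 genes. P-values were adjusted by Benjamini and Hochberg over all of these, with a threshold of 0.05, in 12 comparisons. CPM are counts per 1000000 after TMM scaling, and CPM per kb divide by the joined length of all annotated exons of the gene. Ratios used a prior count of 2 and an exact two-sided permutation test over 252 splits. This test leaves out the pairing by replicate number, because a sign-flip test over the same-numbered pairs cannot reach the threshold. Total counts were 16721319 to 34033340 per library. Counting intervals cover counting error only.

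The members and gene lists were chosen with earlier results of these data known. Described in full were the catalytic subunits, the activators and Psmf1, and in each comparison the 3 largest rises and falls among called members. Other members are described where they depart from their class or were chosen after their values were seen. Other pathway genes are counted, and named where called and changed by a log2 of 1 or more, or as single background values. Some pathway genes are counted but not reported here by name.

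Same-numbered libraries deviated together in all 5 pairs (correlation of deviations from the group means over 0.1) in 8 of 11 comparisons, with 0.198 to 0.416 for pH 6.6 against pH 7.4 with IL-2. Of 70 pairs of libraries within groups, none agreed within sampling noise (lowest chi-square per degree of freedom 6.38). On simulated counts for pH 6.6 against pH 7.4 with IL-2 (13445 genes), 133 of 147 genes changed by a log2 of 1 or more were found, with 8 of 172 calls among unchanged genes. Only 197 genes were changed in the simulation, whereas in the data 5650 of 13819 genes were called lower and 4889 higher. The simulation therefore does not give the rate of false calls where so many genes change. The settings also tried were DESeq2 1.42.0, RLE normalization, a looser and a stricter filter, only the groups compared, no replicate block, each replicate left out, a minimum fold change, and a prior count of 0.5. Counting only genes with at least 90% unique windows was added after seeing the data.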

Additional observations from a re-analysis of the deposited data

Results flagged for a closer look

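Of 217 groups of 5 libraries, 18 held a library whose gap to the next exceeded the critical share of the range by Dixon's test (0.71), where chance gives about 1 in 20. Replicate 5 at 0 h was the highest library of its group for Psmb2 (148.5 CPM), Psmb7 (146.2 CPM), Psmc2 (118.6 CPM), Psmd10 (45.27 CPM), Psme1 (609.4 CPM), Psme2 (246.2 CPM) and the sum of the classed genes (7440 CPM), and the lowest for Psme2b (1.405 CPM). Replicate 5 at pH 7.4 with IL-2 was the highest for Psmb7 (187.5 CPM), Psmd10 (38.7 CPM) and the sum (9203 CPM). Single libraries also stood apart for Psmb2 in replicate 2 at pH 7.4 without IL-2 (57.68 CPM), Psmc1 in replicate 1 (59.44 CPM) and Psmc6 in replicate 5 (100.6 CPM) at pH 7 without IL-2, and Psmc2 in replicate 1 at pH 6.6 with IL-2 (66.15 CPM). The same held for Psmc3ip in replicate 4 at 0 h (3.215 CPM), Psmd4 in replicate 4 at pH 6.6 without IL-2 (153.4 CPM) and, in the same library, the log2 ratio of Psmb10 to Psmb7 (-0.0384).

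The interaction term of the edgeR fit showed that the effect of pH 6.6 differed between cells with and without IL-2 for most proteasome genes. The effect was lower with IL-2 for 45 of them and higher for 1, against 32.8% and 34.3% of all genes. The difference of the log2 effects was -2.33 for Psmc3ip, -2.06 for Psmd1, -1.86 for Psmd12 and 1.18 for Psme2b.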

How the results depend on the processing

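Of 177 log2 fold changes of members described in full, 132 were called. Of 1947 refits under an alternative, 1888 kept the call or its absence, 46 lost the call and 13 gained one. Among values called in the main fit or in the refit, 0 changed direction. Sign changes of values called in neither were not counted. An example is Psmb9 at pH 7.4 without IL-2 against 0 h, at -0.07, and 0.02 without replicate 5. A required absolute log2 fold change of 1 left, lower and higher, 27 and 0 genes at pH 6.6 with IL-2, 0 lower at pH 7 with it, 0 and 0 at pH 6.6 without it, 1 lower for IL-2 at pH 7.4 and 1 lower at pH 7, 0 and 1 for IL-2 at pH 6.6, and 0 and 1 for pH 6.6 with IL-2 against pH 7.4 without IL-2. Against 0 h it left 0 and 2 at pH 7.4 with IL-2, 10 and 1 without IL-2, and 1 and 1 at pH 6.6 with IL-2. Of all 13819 genes, this cut left, lower and higher, 2619 and 2134 at pH 6.6 and 58 and 145 at pH 7 with IL-2. It left 1866 and 963 at pH 6.6 without IL-2. For IL-2 it left 2882 and 2775 at pH 7.4, 2523 and 2397 at pH 7, and 42 and 474 at pH 6.6. For pH 6.6 with IL-2 against pH 7.4 without it, 1575 and 1089 were left. The numbers against 0 h were 1247 and 844 at pH 7.4 with IL-2 and 2189 and 2016 without it. At pH 6.6 with IL-2 they were 1910 and 1224. Among genes with at least 90% unique windows, 1 rose at pH 6.6 with IL-2, 1 was lower with IL-2 at pH 7.4, 1 lower with IL-2 at pH 7 and 0 had a positive interaction. The counts for IL-2 at pH 6.6 were 0 lower under the looser filter, and 4 lower and 20 higher with only the groups compared, which also gave 0 lower at pH 7.4 with IL-2 against 0 h. Over all genes these were 970 lower of 25852 under the looser filter, and 2562 lower and 2807 higher of 12514. For pH 7.4 with IL-2 against 0 h, 3385 of 12640 genes were lower with only the groups compared. The cause of these shifts was not tested.

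Leaving out 1 replicate gave 18 to 28 lower genes at pH 7 with IL-2, 1 to 2 lower for IL-2 at pH 7.4, 1 to 3 lower at pH 7, 0 to 2 lower and 3 to 9 higher at pH 6.6, and 0 to 1 lower at pH 7.4 with IL-2 against 0 h. Of all 13777 to 13887 genes then tested, 637 to 1297 were lower at pH 7 with IL-2. For IL-2, 5374 to 5856 were lower at pH 7.4 and 5090 to 5643 at pH 7. For IL-2 at pH 6.6, 752 to 1078 were lower and 1356 to 1819 higher. At pH 7.4 with IL-2 against 0 h, 3735 to 3990 were lower. The ratios of catalytic subunits kept their calls under the alternatives run, but with 4 against 4 libraries the exact test cannot go below 0.0286.

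In the fit with no replicate block, 1 gene was lower and 5 were higher for IL-2 at pH 6.6, and 26 were lower at pH 7 with IL-2. Without this pairing the other counts stayed within 1.5 times those given. Of all 13819 genes, this fit called 911 lower and 1504 higher for IL-2 at pH 6.6, and 905 lower at pH 7 with IL-2.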
